A study of Mus musculus with 12 samples.

Results

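The DNA replication machinery was followed as a module of 39 genes, from the proteins that recognise and license replication origins to the polymerases, the sliding clamp and the factors that restore chromatin behind the fork. The 39 genes were listed by their function. A gene entered through the array probe sets that carry its symbol and no other, and probe sets of the same gene were averaged. All 39 were measured, by 40 probe sets, among 19935 genes on the array.

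The cells were CD71+ cells, enriched with antibody-coupled magnetic beads from crushed hind leg bones of male mice on a C57BL/6 background, 10 to 12 weeks old. CD71 is the transferrin receptor, carried at high density by dividing red cell precursors. Total RNA of each mouse was hybridised to a 1-colour Affymetrix whole-transcript array. There were 12 arrays in 4 groups of 3 mice. WT mice carried no modification. CD70TG mice, from the transgenic line named as clone F13 in the labels, carried a CD70 transgene with Ifng intact. Ifng-/- mice lacked the interferon-gamma gene, and CD70TG*Ifng-/- mice combined the transgene with that loss. CD70 is the ligand of the costimulatory receptor CD27 on T cells. The labels do not give the promoter that drives the transgene. As background, CD70 transgenic mice of this kind are known to express CD70 on B cells. The comparisons ask how lasting CD70 costimulation acts on red cell precursors and how far interferon-gamma is needed for it.

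Eukaryotic replication starts in G1, when the origin recognition complex, CDC6 and CDT1 load the MCM2-7 helicase onto DNA. The kinase CDC7 with DBF4, together with CDC45 and the GINS complex, then turns the loaded helicase into an active one as cells enter S phase. Erythroblasts couple rapid cycling to differentiation, and transcription of most of these genes is under E2F factors that rise before S phase.

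The values are log2 values, each relative to the median of its probe set over the 12 arrays, so they show differences between mice and no absolute level. A class of level could still be read from the rounding of the numbers. It placed 2871 genes at a log2 level of 8 or more before centring, called brightly measured genes here, and 37 of the 39 replication genes were among them, all except Cdc7 and Gins2. Brightly measured genes shifted together between arrays, with a median change of 0.19 in CD70TG against WT, whereas the median over all genes was -0.02. Changes of replication genes are therefore given beside that shift. The replication genes varied between mice of the same genotype with a median SD of 0.13 (range 0.09 for Rrm2 to 0.21 for Gins1), close to the 0.12 of all brightly measured genes. For arrays, their number limits the precision, here 3 a group. The genes changed by design were dim. Ifng lay between -0.11 and 0.20 in CD70TG*Ifng-/-, between -0.16 and -0.01 in Ifng-/- and between -0.09 and 0.17 in WT, so it did not separate the groups (Ifng-/- against WT -0.10, limma adjusted p 0.632). Whether its probes lie in the deleted part is not known, and this gives no check of the labels. Cd70 was higher in all CD70TG arrays than in WT, by 0.26 (limma adjusted p 0.18).

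The control regions of the module were read from the RefSeq promoter table, whose windows run from 250 bases before to 50 bases after a gene's start on the build GRCm38.p6. It held a window for 33 of the 39 genes. Gins1, Gins2, Mcm4, Pole, Prim2 and Rfc2 had no entry. The E2F motif was searched on both strands as TTTCCCGC, TTTCGCGC, TTTGCCGC and TTTGGCGC, and overlapping matches were counted separately. It was present in 12 of 33 replication genes (36.4%), against 3.48% of all measured genes with a window and 7.77% of brightly measured ones. The 12 were Orc1, Cdc6, Cdt1, Mcm3, Mcm5, Mcm6, Mcm7, Pola1, Pold1, Rfc3, Lig1 and Uhrf1. The CCAAT box, the letters bound by NF-Y, was in 21 of 33 (63.6%), against 41.7% of measured genes. The CHR motif TTTGAA, known from late cell cycle genes, was in 5 of 33 (15.2%), close to the 17.3% of measured genes, while 16 of 22 mitosis genes with a window held it (72.7%). Each match describes letters in a window and is no measurement of binding.

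The 5 windows below were chosen to show the range of the module. Rfc3 had the highest difference of the 39 in CD70TG mice, Mcm6 and Mcm5 hold several matches in the same window, Cdc6 holds a match on the opposite strand, and Pcna holds none and had the lowest difference. Each line gives the 160 bases before the start, 5′ to 3′ on the strand of the gene, with E2F matches in capitals.

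Rfc3, chr5:151651209-151651368, minus strand: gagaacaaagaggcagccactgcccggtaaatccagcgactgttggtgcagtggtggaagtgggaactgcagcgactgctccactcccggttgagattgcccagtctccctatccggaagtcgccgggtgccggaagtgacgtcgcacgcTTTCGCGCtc

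Mcm6, chr1:128359706-128359865, minus strand: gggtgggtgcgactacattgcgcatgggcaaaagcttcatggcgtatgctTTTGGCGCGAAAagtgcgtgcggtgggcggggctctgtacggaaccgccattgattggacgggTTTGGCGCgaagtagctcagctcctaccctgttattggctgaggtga

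Mcm5, chr8:75109349-75109508, plus strand: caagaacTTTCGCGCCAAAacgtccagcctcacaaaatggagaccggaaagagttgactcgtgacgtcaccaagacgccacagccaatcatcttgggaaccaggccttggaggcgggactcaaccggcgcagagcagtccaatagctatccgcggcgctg

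Cdc6, chr11:98907991-98908150, plus strand: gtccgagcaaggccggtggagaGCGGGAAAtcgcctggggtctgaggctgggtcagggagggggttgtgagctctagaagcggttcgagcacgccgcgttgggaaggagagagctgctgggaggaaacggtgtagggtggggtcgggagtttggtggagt

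Pcna, chr2:132253181-132253340, minus strand: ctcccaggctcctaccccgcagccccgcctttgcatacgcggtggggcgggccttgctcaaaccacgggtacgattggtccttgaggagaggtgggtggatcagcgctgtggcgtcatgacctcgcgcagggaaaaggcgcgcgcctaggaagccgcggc

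In Mcm6 a pair of overlapping matches spans positions -110 to -99 and a further match lies at -47 to -40, counted from the start. In Mcm5 overlapping matches on opposite strands span -153 to -142. In Rfc3 the match lies at -10 to -3, next to another that begins at the start itself and is not printed. The median log2 change in CD70TG against WT, described next, was 0.24 over the 12 genes with a match and 0.26 over the 21 genes with a window and no match. Of the 6 genes that rose, 1 held a match, 4 held none and 1 had no entry.

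In CD70TG mice all 39 replication genes had higher means than in WT, by a median of 0.27 on the log2 scale (range 0.01 for Pcna to 0.42 for Rfc3). Higher means were also seen in 2317 of the 2871 brightly measured genes and in 8765 of all 19935 genes. Of the 39 replication genes, 6 rose past the threshold of an adjusted p of 0.05 in limma, which is 15.4% of the module. They were Rfc3 and Rfc5 of the clamp loader, Prim2 and Pola2 of the primase complex, Rpa2 of the single-strand binding protein and Chaf1a of the histone deposition complex. No gene fell and 33 did not pass. Over all genes 8.23% rose, and 22.4% of the brightly measured genes did, so the share of the 37 brightly measured replication genes that rose (16.2%) lay below that of their level class. The size of the change was above that of the class for 29 of 39 genes, since the class median was 0.19, and 32.6% of brightly measured genes had a difference above the module's median. In 22 of 39 genes every CD70TG array lay above every WT array, against 17.6% of all genes and 43.3% of brightly measured genes. At an unadjusted limma p under 0.05 there were 24 replication genes, or 61.5%, against 26.3% of all genes and 52.6% of the bright class. A further 13 genes had limma adjusted p-values between 0.05 and 0.10. In bulk samples, more cells in S phase and more replication RNA per cell cannot be told apart.

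The count depended on how the shared shift and the single arrays were treated. When each array was centred within the level classes, 2 replication genes rose (Rfc3 and Gins2), 31 had positive and 8 negative changes, and the median was 0.12. Over all genes 6.06% rose in that setting, and the median of the bright class was 0.047. With a test restricted to the brightly measured genes, 17 of 37 rose, against 34.8% of that class. With arrays weighted by their quality 24 rose (61.5%), against 17.3% of all genes. In that setting 54.3% of the brightly measured genes changed in either direction. Leaving out WT 1, CD70TG 1 or CD70TG 2 left 0 genes, while 2.56%, 2.98% and 3.37% of all genes rose. Leaving out WT 2 or CD70TG*Ifng-/- 3 left 1 (Rfc3), against 6.23% and 6.42% of all genes. Leaving out Ifng-/- 3 left 2, against 7.15%. Without WT 3 none of the 6 passed and 1 other gene, Cdt1, did, against 4.83% of all genes rising. Leaving out Ifng-/- 1, Ifng-/- 2 or CD70TG 3 gave 12, 14 and 17, against 9.06%, 10.1% and 9.98% of all genes rising. Rfc3 passed in 17 of 21 alternatives and in 8 of the 12 that left out an array, more often than any other gene of the module. Chaf1a and Pola2 followed with 11 of 21. The 21 include the setting that left out both CD70TG 3 and Ifng-/- 2, which was chosen after seeing the data. Rfc3, Chaf1a and Pola2 all passed there.

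**Figure D1:**
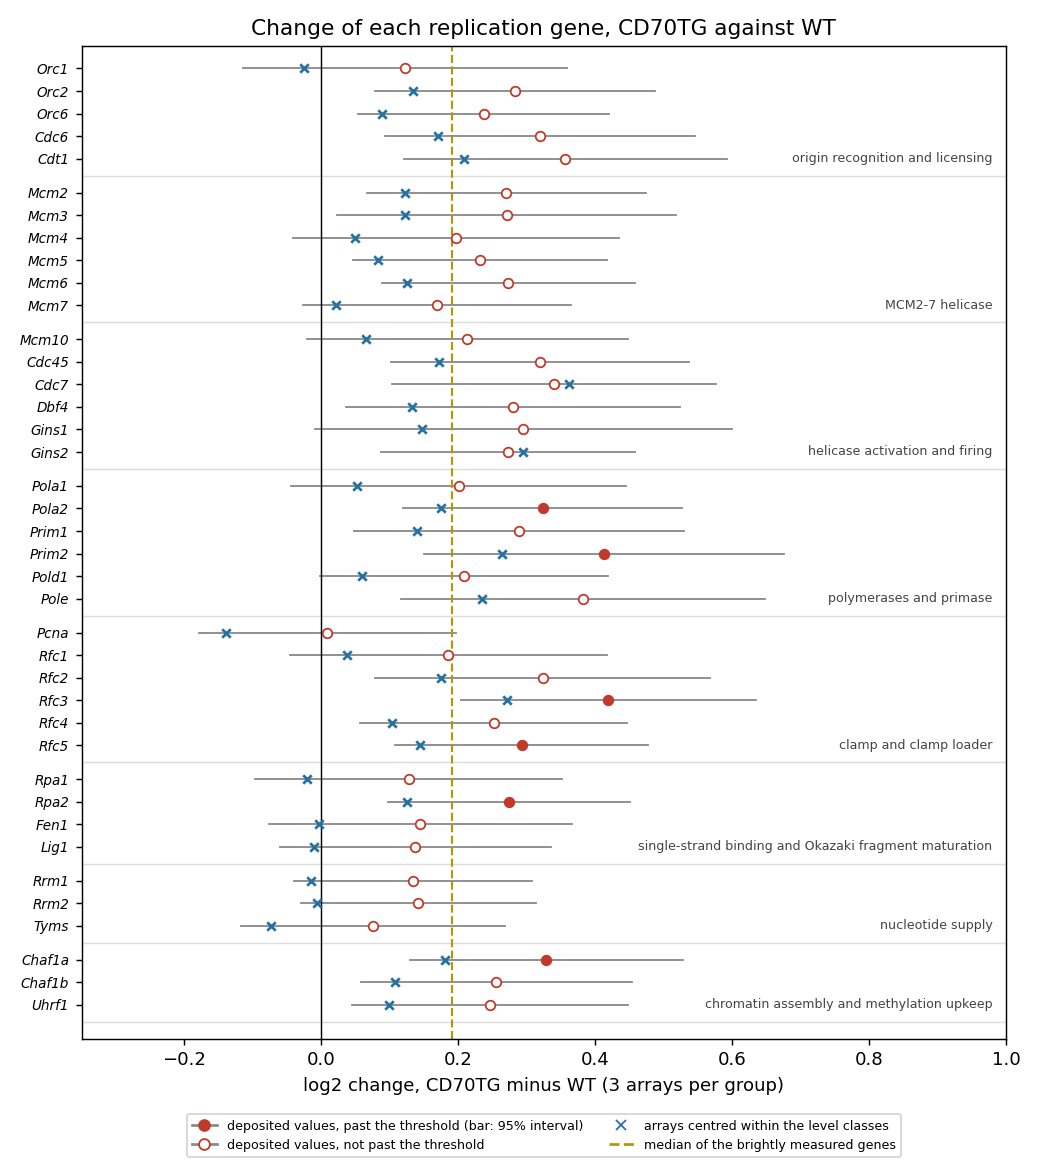
Log2 change of each of the 39 replication genes in CD70TG against WT (x axis, 3 arrays per group), grouped by role on the y axis, with bars for the 95% interval of limma. Filled circles are the 6 genes past the threshold, crosses are the changes after centring arrays within the level classes, and the dashed line is the median of 0.19 of the brightly measured genes. All circles lie right of 0, while 8 of the 39 crosses lie left of it.

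Among the genes of origin recognition and licensing, 0 of 5 passed in limma, with a median change of 0.28 (range 0.12 to 0.36), and 4 had an unadjusted p under 0.05. Cdt1, which brings the helicase to origins together with CDC6, had the smallest p of the 5. It read -0.26, -0.34 and -0.04 in the WT mice, 0.30, 0.17 and -0.04 with the transgene, -0.10, 0.23 and 0.04 with Ifng lost and 0.07, -0.09 and 0.10 with both. CD70TG 3 lay just below WT 3, so that the groups overlapped, and the change of 0.36 ± 0.11 (SE) had a limma adjusted p of 0.0523. Cdc6, the ATPase that acts with CDT1, had a log2 difference of 0.32 with all CD70TG arrays above WT (limma adjusted p 0.0687). Orc2 had one of 0.28 (limma adjusted p 0.0743) and Orc6 of 0.24 (limma adjusted p 0.0925), both without overlap. Orc1, the ATPase subunit of the origin recognition complex that is made and lost with each cycle, had a log2 difference of 0.12 with overlapping groups (limma adjusted p 0.515).

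The 6 subunits of the MCM2-7 helicase, the ring that unwinds DNA at the fork, had differences within a narrow band of 0.17 to 0.27, with a median of 0.25, and 0 of 6 passed in limma (4 at an unadjusted p under 0.05). Mcm6 had the smallest p. It read -0.27, -0.22 and -0.14 in the WT mice, 0.14, 0.13 and -0.09 with the transgene, -0.16, 0.11 and -0.03 with Ifng lost and 0.05, 0.03 and 0.08 with both. All CD70TG arrays lay above all WT arrays, with CD70TG 3 nearest to them, and the change was 0.27 ± 0.09 (SE, limma adjusted p 0.0565). Mcm2, Mcm5 and Mcm7 also showed no overlap, with changes of 0.27, 0.23 and 0.17. Mcm3 (0.27) and Mcm4 (0.20) overlapped.

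The 6 genes that activate the helicase had a median change of 0.29 (range 0.21 to 0.34), and again 0 of 6 passed in limma, with 4 at an unadjusted p under 0.05. Gins2, a subunit of the GINS complex and one of the dimmer members, had the smallest p. Its arrays gave -0.05, -0.27 and -0.25 in the WT mice, 0.07, 0.13 and 0.05 with the transgene, -0.33, -0.03 and -0.12 with Ifng lost and 0.11, 0.03 and 0.09 with both. Here every array with the transgene was higher than every array without it, whether or not Ifng was present. The change was 0.27 ± 0.09 (SE) with Ifng intact (limma adjusted p 0.0587) and 0.23 ± 0.09 without Ifng (limma adjusted p 0.26). Cdc45, the helicase cofactor, had a log2 difference of 0.32 (limma adjusted p 0.0593) and Cdc7, the kinase that fires origins, of 0.34 (limma adjusted p 0.064), both without overlap. Dbf4, the activating partner of CDC7, had a log2 difference of 0.28, Gins1 of 0.30 and Mcm10, which helps to load the polymerase, of 0.21, and these overlapped.

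The polymerase and primase genes had a median of 0.31 (range 0.20 to 0.41), and 2 of 6 rose. Prim2, the large subunit of the primase that lays down RNA primers, read -0.32, -0.12 and -0.23 in the WT mice, 0.37, 0.17 and 0.03 with the transgene, -0.15, 0.28 and -0.03 with Ifng lost and 0.15, -0.13 and 0.22 with both. The CD70TG arrays were all above 0 and the WT arrays all below it, a rise of 0.41 ± 0.12 (SE) or 1.33-fold (limma adjusted p 0.0454). Pola2, the accessory subunit of polymerase alpha, read -0.30, -0.18 and -0.16 in the WT mice, 0.24, 0.10 and -0.01 with the transgene, -0.06, 0.21 and 0.01 with Ifng lost and 0.25, -0.02 and 0.11 with both. The 3 WT arrays were the lowest of the 12, and the rise was 0.32 ± 0.09 (SE) or 1.25-fold (limma adjusted p 0.0431). Pole, the leading strand polymerase, had a log2 difference of 0.38, close to that of Prim2, but did not pass (limma adjusted p 0.0637). Prim1, the catalytic primase subunit, had a log2 difference of 0.29, Pold1, the lagging strand polymerase, of 0.21 and Pola1, the catalytic subunit of polymerase alpha, of 0.20.

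The clamp and its loader had a median of 0.27 (range 0.01 to 0.42). The 5 RFC subunits, which open the PCNA ring and close it around DNA, had log2 differences of 0.19 (Rfc1), 0.32 (Rfc2), 0.42 (Rfc3), 0.25 (Rfc4) and 0.29 (Rfc5), each without overlap, and 2 of the 5 rose. Rfc3 read -0.33, -0.23 and -0.30 in the WT mice, 0.27, 0.20 and -0.08 with the transgene, -0.09, 0.15 and 0.03 with Ifng lost and 0.24, -0.02 and 0.02 with both. WT was below all 9 other arrays, and the rise in CD70TG was 0.42 ± 0.10 (SE) or 1.34-fold (limma adjusted p 0.018), a change that 8.46% of brightly measured genes exceeded. Rfc5 read -0.11, -0.09 and -0.08 in the WT mice, 0.21, 0.15 and 0.23 with the transgene, -0.25, 0.08 and -0.08 with Ifng lost and 0.11, -0.09 and 0.09 with both. The 3 CD70TG arrays were the highest of the 12, CD70TG 3 included, and the rise was 0.29 ± 0.09 (SE) or 1.22-fold (limma adjusted p 0.044).

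Pcna, the sliding clamp that tethers polymerases to DNA and the best known proliferation marker of the module, read 0.08, 0.01 and -0.15 in WT mice and 0.05, -0.01 and -0.07 with the transgene. With Ifng lost it read -0.23, -0.01 and 0.01, and with both the values were -0.04, 0.08 and 0.15. The WT and CD70TG arrays lay within the same range, and the change was 0.01 ± 0.09 (SE, 95% interval -0.18 to 0.20, limma adjusted p 0.963). This interval ends below the module's median of 0.27. After centring within the level classes the change was -0.14. Both probe sets of Pcna gave nearly the same values, and since near-identical pseudogene copies of Pcna exist in the mouse genome, how much of the signal comes from the parent gene is uncertain.

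**Figure D2:**
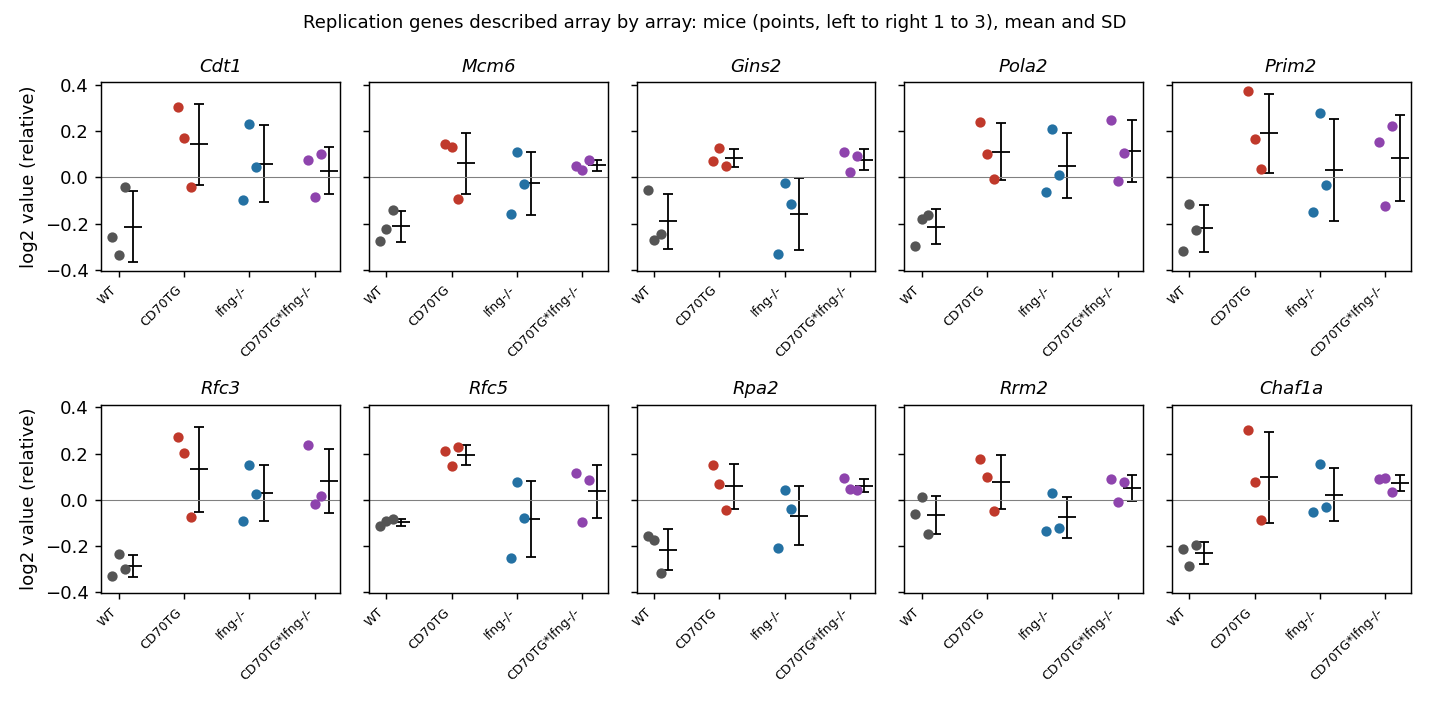
Log2 value relative to the gene's median over the 12 arrays (y axis) for 10 of the replication genes described array by array, Pcna left out, in the 4 genotypes (x axis), with 1 point per mouse and the mean and SD of 3 mice beside them. The WT points of Rfc3, Pola2 and Chaf1a lie below all other points of the panel, and CD70TG 3 is the lowest CD70TG point in every panel except that of Rfc5.

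Single-strand binding and Okazaki fragment genes had a lower median, 0.14 (range 0.13 to 0.27), and 1 of 4 rose. Rpa2, the middle subunit of the protein that coats single-stranded DNA, read -0.16, -0.17 and -0.32 in the WT mice, 0.15, 0.07 and -0.05 with the transgene, -0.21, 0.04 and -0.04 with Ifng lost and 0.09, 0.05 and 0.04 with both. The CD70TG arrays lay above the WT arrays, a rise of 0.27 ± 0.08 (SE) or 1.21-fold (limma adjusted p 0.0465). Rpa1 (0.13), the flap endonuclease gene Fen1 (0.14) and the DNA ligase gene Lig1 (0.14) overlapped between the groups and did not pass.

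The 3 genes of nucleotide supply had a median of 0.13 (range 0.07 to 0.14), and none passed in limma or had an unadjusted p under 0.05. Rrm2, the regulated subunit of ribonucleotide reductase, read -0.06, 0.01 and -0.15 in the WT mice, 0.18, 0.10 and -0.05 with the transgene, -0.13, 0.03 and -0.12 with Ifng lost and 0.09, -0.01 and 0.08 with both. The groups overlapped, and the change was 0.14 ± 0.08 (SE, limma adjusted p 0.284). Rrm1, the large subunit, had a log2 difference of 0.13 (limma adjusted p 0.317) and Tyms, thymidylate synthase, of 0.07 (limma adjusted p 0.637). All 3 turned negative, to between -0.07 and -0.01, when arrays were centred within the level classes, as did Orc1, Rpa1, Fen1, Lig1 and Pcna.

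Of the chromatin genes, 1 of 3 rose, with changes of 0.25 to 0.33. Chaf1a, the large subunit of the CAF-1 complex that places histones on new DNA, read -0.21, -0.29 and -0.20 in the WT mice, 0.30, 0.08 and -0.09 with the transgene, -0.05, 0.15 and -0.03 with Ifng lost and 0.09, 0.09 and 0.03 with both. The 3 WT arrays were again the lowest of the 12, and the rise was 0.33 ± 0.09 (SE) or 1.26-fold (limma adjusted p 0.0367). Chaf1b, its partner subunit, had a log2 difference of 0.26 (limma adjusted p 0.0942), and Uhrf1, which guides maintenance methylation of new DNA, of 0.25 (limma adjusted p 0.112).

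The replication genes were high or low together in several of the mice. In WT the module's median per array was -0.19, -0.13 and -0.14, with 2, 2 and 1 of 39 genes above 0. In CD70TG it was 0.21, 0.08 and -0.07, with 39, 36 and 7 genes above 0. Thus all 3 CD70TG medians lay above the WT medians, but CD70TG 3 was nearer to WT than to CD70TG 1. In Ifng-/- the medians were -0.16, 0.15 and -0.01, so that the 3 mice covered nearly the whole range of the study, with 0, 37 and 18 genes above 0. In CD70TG*Ifng-/- they were 0.12, 0.00 and 0.09. The medians of the brightly measured genes followed the same order in the CD70TG arrays (0.14, 0.08 and -0.03) and in the Ifng-/- arrays (-0.08, 0.11 and -0.03), and the part of this common shift in the result was not tested. CD70TG 1 was the highest array for 24 of the 39 genes, WT 1 the lowest for 17 and Ifng-/- 1 the lowest for 11.

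**Figure D3:**
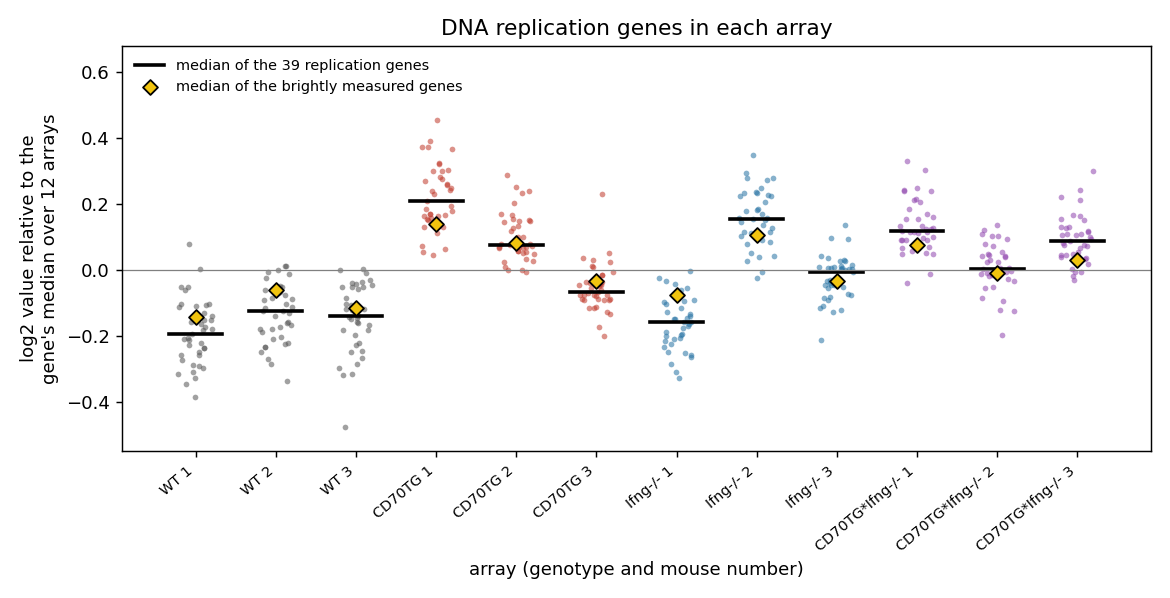
Log2 values of the 39 replication genes in each of the 12 arrays (points), 0 being the median of a gene across arrays, with the median of the module (bars) and of the 2871 brightly measured genes (diamonds). The module lies at -0.19 to -0.13 in WT and at 0.21, 0.08 and -0.07 in CD70TG, and the diamonds shift in the same direction in these arrays, by less except in CD70TG 2, where both are 0.08.

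Without Ifng, the transgene gave no replication gene past the threshold. In CD70TG*Ifng-/- against Ifng-/-, 0 of 39 genes passed in limma, and the median change was 0.10 (range -0.04 for Mcm4 to 0.23 for Gins2), with 34 genes positive. An unadjusted limma p under 0.05 was seen in 2 of 39 (5.13%), against 12.1% of all genes and 15.7% of the bright class. The bright class had a median of 0.04, with 1766 of 2871 genes positive, and 2.5% of all genes changed in either direction. In 3 of 39 genes (Gins2, Orc6 and Uhrf1), or 7.69%, all transgenic arrays were higher, against 9.32% of all genes and 9.51% of the bright class. With weighted arrays 2 genes passed (5.13%), against 7.22% of all genes. The origin licensing genes had a median of 0.01 in this comparison and the MCM2-7 genes one of 0.06.

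Loss of Ifng alone was accompanied by a median difference of 0.15 in Ifng-/- against WT (range -0.06 for Pcna to 0.31 for Rfc3), with 37 genes positive. The bright class had a median of 0.11, with 2268 of 2871 genes positive. In limma 0 of 39 genes passed, and over all genes 0.00502% passed in either direction, which is 1 gene. With weighted arrays the count was also 0, against 0.0351% of all genes. An unadjusted p under 0.05 was seen in 10 of 39 genes (25.6%), against 13.8% of all genes and 21.9% of the bright class. All Ifng-/- arrays lay above all WT arrays in 6 genes (Orc2, Cdc6, Pola2, Rfc3, Rfc4 and Chaf1a), or 15.4%, which is above the 9.43% of all genes and below the 21.7% of brightly measured genes. Rfc3 differed by 0.31 ± 0.10 (SE, limma adjusted p 0.256). This comparison shares its WT arrays with that of CD70TG against WT, so a low WT array enters both.

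In transgenic mice, loss of Ifng was accompanied by differences on both sides of 0. In CD70TG*Ifng-/- against CD70TG the median difference was 0.00 (range -0.16 for Rfc5 to 0.12 for Pola1), with 20 genes positive and 19 negative. In limma 0 genes passed, and 1.41% of all genes passed in either direction. An unadjusted limma p under 0.05 was seen in 0 genes of the module, against 11.2% of all genes and 19.2% of the bright class. With weighted arrays 1 of 39 passed (2.56%), against 17.7% of all genes. In 0 of 39 genes were all CD70TG*Ifng-/- arrays higher, against 9.31% of all genes, and in 1, Rfc5, all were lower (change -0.16, limma adjusted p 0.528). The 95% interval for Rfc3, -0.27 to 0.16, and that for Chaf1a, -0.22 to 0.17, still allow differences of the size seen in some genes of the other comparisons.

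The difference between the transgene effect with and without Ifng was tested directly by the interaction. It had a median of 0.17 over the module (range -0.13 for Pcna to 0.39 for Cdt1) and was positive in 36 of 39 genes. The bright class, however, had a median of 0.15, with 2051 of 2871 genes positive. After centring within level classes the module's median was 0.042. None of the 39 passed in limma, against 1.89% of all genes. An unadjusted p under 0.05 was seen in 4 of 39 (10.3%), a share below the 20.3% of all genes and the 31.3% of the bright class. With weighted arrays 2 passed (5.13%), against 10.2% of all genes and 18.5% of the bright class. The 4 were Rfc3 (0.37, limma adjusted p 0.175), Cdt1 (0.39, limma adjusted p 0.19), Cdc6 (0.35, limma adjusted p 0.208) and Cdc45 (0.34, limma adjusted p 0.211). For Cdt1 the side by side changes were 0.36 with Ifng and -0.03 without it, and for Rfc3 0.42 and 0.05. A smaller transgene effect on the module without Ifng was thus not shown at the threshold.

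**Figure D4:**
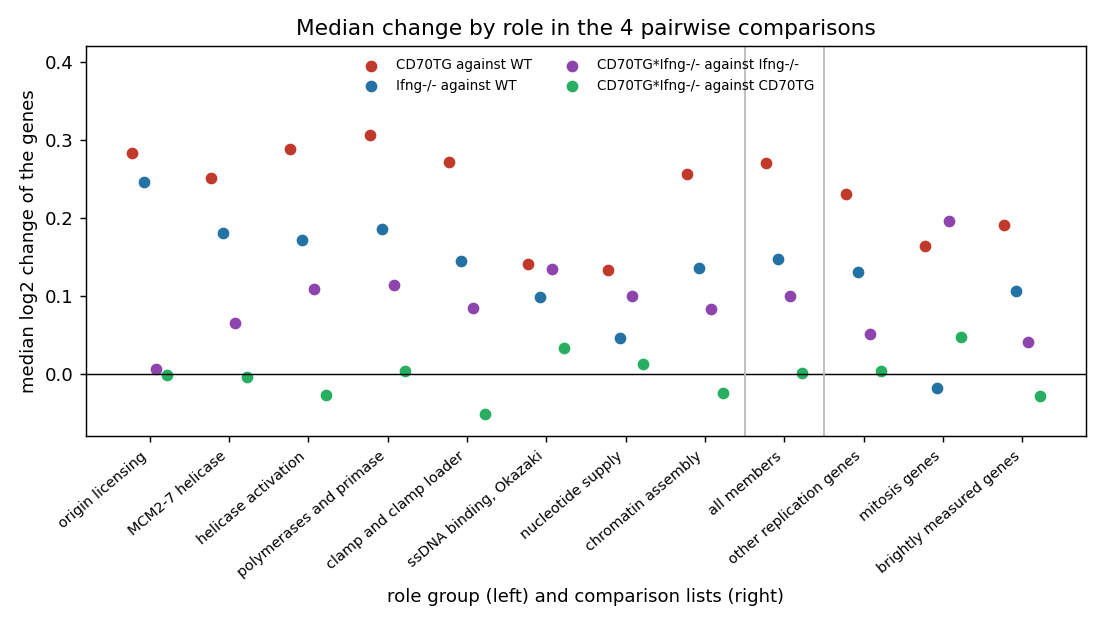
Median log2 change (y axis) of each role group, of all 39 replication genes, of 40 other replication genes, of 24 mitosis genes and of the brightly measured genes, in the 4 pairwise comparisons (colours). The medians for CD70TG against WT run from 0.13 for nucleotide supply to 0.31 for polymerases and primase, those for CD70TG*Ifng-/- against CD70TG lie near 0, and the mitosis genes are highest in CD70TG*Ifng-/- against Ifng-/- (0.20).

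Replication genes outside the module were read in the same way. In CD70TG against WT 8.23% of all genes and 22.4% of brightly measured ones rose. Of 40 further replication genes measured, 6 rose, 0 fell and 34 did not pass in that comparison, with a median of 0.23. Among them were Dna2, a nuclease of Okazaki fragment ends (0.46, limma adjusted p 0.0036), Topbp1, which helps to fire origins (0.32, limma adjusted p 0.0153), Pold2, the small subunit of polymerase delta (0.50, limma adjusted p 0.0213), and Dut, which removes dUTP (0.33, limma adjusted p 0.0272). Dna2 read -0.36, -0.22 and -0.18 in WT mice and 0.21, 0.22 and 0.20 with the transgene, without overlap. It passed in all 21 alternatives, among them the setting chosen after seeing the data. The count of 6 fell to 3 with quantile normalisation or centring within level classes, to 1 without CD70TG 1 or CD70TG 2 and to 2 without WT 1 or WT 3. It grew to 10 or 11 without CD70TG 3, Ifng-/- 1 or Ifng-/- 2 and to 19 with weighted arrays, where 17.3% of all genes rose. With weighted arrays 54.3% of the bright class, to which 25 of the 40 belong, changed in either direction.

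Among regulators of the G1 to S transition, 5 named genes changed by more than any of the 39 genes of the module. Of 31 measured, 8 rose and 2 fell in CD70TG against WT, with a median of 0.19. Over all 19935 genes 1640 rose and 539 fell, and in the bright class of 2871 genes 642 rose and 126 fell. Myc, a transcription factor that drives growth and cycling, read -0.77, -0.49 and -0.45 in WT mice and 0.32, 0.60 and 1.12 with the transgene, with no overlap, a rise of 1.25 ± 0.17 (SE, limma adjusted p 4.67e-04). Cdk4, the kinase that phosphorylates the retinoblastoma protein, rose by 0.78 ± 0.10 (SE, limma adjusted p 4.94e-04), and Cdk6, its paralogue, by 0.83 ± 0.15 (SE, limma adjusted p 0.00327). E2f6, a repressor among the E2F factors, rose by 0.55 (limma adjusted p 0.00849), and Tfdp2, a dimerisation partner of E2F factors, fell by 0.46 (limma adjusted p 0.00943). The other gene that fell was the cyclin gene Ccnd1 (-0.32, limma adjusted p 0.0153), with every CD70TG array below every WT array. E2f1 (0.19, limma adjusted p 0.261) and E2f2 (-0.20, limma adjusted p 0.212), the activating factor abundant in late erythroblasts, did not pass, nor did the inhibitor gene Cdkn1b (-0.10, limma adjusted p 0.614). After centring within the level classes E2f2 passed as a fall (-0.35, limma adjusted p 0.0199), and E2f1 passed as a rise without CD70TG 3 (0.32, limma adjusted p 0.0387) and with weighted arrays (0.25, limma adjusted p 0.0317). Myc, Cdk4 and Cdk6 passed in every alternative they were tested in. The count of 8 fell to 4 without WT 1, CD70TG 1 or CD70TG 2, to 5 without WT 2 or WT 3 and with quantile normalisation or centring within level classes, and grew to 15 without CD70TG 3. With weighted arrays 17 of 31 rose, against 17.3% of all genes, while 54.3% of the bright class changed in either direction. Of the 31 genes 20 were brightly measured. The count of 2 that fell became 1 without CD70TG 1 or WT 3, and 3 with centring within level classes or with weighted arrays.

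Mitosis genes had a lower median in CD70TG mice than either list. It was 0.16, below that of the bright class to which all 24 belong. An unadjusted limma p under 0.05 was seen in 5 of 24, against 52.6% of the bright class, and 0 of 24 passed in limma. The count that rose was 5 without CD70TG 3, 2 without Ifng-/- 2 and 1 without Ifng-/- 1. Over all genes 9.98%, 10.1% and 9.06% rose in these settings. With centring within the level classes 0 rose and 1 fell, Nusap1 (-0.33, limma adjusted p 0.0271), while 1208 of all 19935 genes rose and 589 fell. The median of the 24 mitosis genes was then 0.015. The count that rose was 11 of 24 with weighted arrays, where 17.3% of all genes rose. Of the bright class 54.3% changed in either direction in that setting. In CD70TG*Ifng-/- against Ifng-/- all 24 mitosis genes were positive, with a median of 0.20 against 0.10 for the replication module, and 0 passed in limma. Of the bright class 1766 of 2871 genes were positive there. An unadjusted limma p under 0.05 was seen in 10 of the 24, against 12.1% of all genes and 15.7% of the bright class.

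Markers of several other cell types differed in level with the transgene, while most T cell, NK, stem and progenitor markers did not pass. All 9 measured erythroid markers were brightly measured. Tfrc, the gene of CD71, did not pass in CD70TG against WT (change -0.02, 95% interval -0.19 to 0.15, limma adjusted p 0.902). After centring within the level classes its change was -0.17 (limma adjusted p 0.171). In CD70TG against WT, 1 of 9 erythroid markers fell, Alas2 of haem synthesis (-0.43, limma adjusted p 0.00393), with 6 positive and 3 negative. With centring within the level classes 2 of 9 fell, with 3 positive and 6 negative. With weighted arrays 2 rose and 1 fell. All 13 macrophage markers fell, with a median of -1.67, from array medians of 0.64 to 1.34 in WT to -1.03 to -0.71 in CD70TG, and none of the 13 was brightly measured. Of 9 B cell markers 8 fell, from array medians of 0.13 to 0.54 to medians of -0.63 to -0.57. Of 8 neutrophil markers 4 fell, with all 8 negative and array medians of 1.00 to 1.37 in WT and -0.47 to -0.05 in CD70TG, and 4 of the 8 were brightly measured. That neutrophil count was 0 without WT 1, WT 2 or CD70TG 1, 1 without WT 3, 2 without CD70TG 2 and 8 without Ifng-/- 1 or Ifng-/- 2. Of 4 early granulocyte markers 1 rose (Prtn3, 1.08), a count of 0 without WT 1, WT 2 or CD70TG 3 and of 3 without Ifng-/- 1 or Ifng-/- 2. All 4 were positive, with array medians of 0.57 to 1.90 in CD70TG and -0.16 to 0.31 in WT. Of 6 T cell and NK markers 1 fell (Cd4, -0.52, limma adjusted p 0.00408), with a median of -0.10. Of 5 stem and progenitor markers 1 fell (Meis1, -0.29, limma adjusted p 0.0284), with 3 positive and a median of 0.11. That stem and progenitor count was 0 without WT 2, CD70TG 2 or CD70TG 3. Within CD70TG the early granulocyte median was highest in CD70TG 3, the array with the lowest replication median. The neutrophil medians of CD70TG 1, 2 and 3 were -0.47, -0.05 and -0.31, and did not follow the order of the replication medians in either direction. In Ifng-/- the neutrophil median was 2.02 in Ifng-/- 1, -0.80 in Ifng-/- 2 and 0.68 in Ifng-/- 3. The early granulocyte medians of these 3 arrays were 0.56, -0.36 and -0.16. In CD70TG*Ifng-/- against Ifng-/- all 13 macrophage markers fell as well, with a median of -2.73, and 0 of the 4 early granulocyte markers passed in limma, with a median of -0.41. The part of these cell type markers in the replication result was not tested.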

How the data were processed

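Each of the 12 arrays was 1 mouse, grouped by genotype from the labels. The deposited values were made by the authors with RMA, per the submitters' processing notes, and are on a log2 scale. The RMA version was not given in the sources used here. Every probe set of that table had a median of 0 over the arrays. How it was centred, the log base and the direction are stated nowhere and were taken from what RMA gives.

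Of 28815 probe sets, 21780 had 1 gene symbol in GEO's platform annotation, 1605 had several and 5430 had none. Only the first were used, and genes of the lists without such a probe set are not analysed here. Level classes came from the rounding step of the stored numbers (tolerance 0.05 of a step, values under 0.001 left out). Group means were fitted with limma 3.58.1 in R 4.3.3 (lmFit, then eBayes, with 8 residual and 6.23 prior df), two-sided, with Benjamini-Hochberg adjustment over 19935 genes and a threshold of 0.05. The method was tested on simulated data with independent noise for each gene, which cannot test shifts shared by the genes of an array. The planned choice of the probe set with the highest mean and a filter on dim genes could not be run on centred values, so probe sets were averaged. Values in every array are given for genes past the threshold and for the gene with the smallest p of each role, and Pcna was added after its values were seen. From each other list up to 4 genes with the smallest p are named, from markers up to 2, and E2f1, E2f2, Myc, Cdk6, Cdkn1b and Tfrc always. Members and lists were chosen with earlier results of these data known. No label says that numbers shared by mice of different genotypes pair them, and the main fit did not treat them as pairs.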

Additional observations from a re-analysis of the deposited data

Results flagged for a closer look

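None of the 39 replication genes differed in its transgene effect between mice with and without Ifng at the limma threshold, but 3 genes named beside them did. For Myc the interaction was 1.38 (limma adjusted p 0.0119, and 7.17e-04 to 0.0476 over the alternatives). For Cdk4 it was 0.70 (limma adjusted p 0.0332, and 0.0025 to 0.103 over the alternatives, of which 9 of 20 passed), and for Dna2 0.60 (limma adjusted p 0.0228, and 0.00414 to 0.0757, of which 14 of 20 passed). Each of the 3 read higher in every Ifng-/- array than in every WT array, by 0.63 for Myc (limma adjusted p 0.229), 0.44 for Cdk4 (0.217) and 0.33 for Dna2 (0.221). Each read lower in every CD70TG*Ifng-/- array than in every CD70TG array, by values of -0.76 for Myc (limma adjusted p 0.0349), -0.26 for Cdk4 (0.349) and -0.27 for Dna2 (0.165), and of these 6 differences only that of Myc in transgenic mice passed. Among the markers of other cells, the interaction passed in 6 of 13 macrophage markers, with all 13 positive. It passed in 2 of 9 B cell markers, with 8 negative, and over all genes 1.89% passed. Of those that passed, only the markers named above are given. The interaction was 1.43 for Vcam1 of macrophages (limma adjusted p 0.018, and 0.00194 to 0.642 over the alternatives, of which 15 of 19 passed), whose difference was more negative without Ifng. It was -1.04 for Cd79a of B cells (limma adjusted p 0.0299, and 0.00168 to 0.0909, of which 11 of 19 passed), whose difference was more negative with Ifng.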

How the results depend on the processing

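For CD70TG against WT the median change of the replication genes was positive in every setting, and moved by more than the pooled SD of array medians (0.11) only when arrays were centred within the level classes, where it was 0.12, as was the median interaction, which became 0.042. The count of 6 genes was less steady. It was 1 with quantile normalisation, where 5.33% of all genes rose, and 2 with centring within level classes. Among brightly measured genes only it was 17 of 37, and with array weights 24. It ranged from 0 to 17 when each array was left out in turn. Leaving out both CD70TG 3 and Ifng-/- 2 gave 26, against 13.4% of all genes rising. These arrays were chosen after seeing the data because they lay apart from their groups, so the count is no independent support. This setting is counted among the alternatives wherever these are named. With the mouse number as a replicate block the count was 1, against 6.18% of all genes rising. Correlations between deviations of same-numbered mice ran from -0.40 to 0.31, and those of differently numbered mice from -0.52 to 0.53. With 3 mice a group these correlations cannot decide whether the numbers pair mice. With array weights the counts became 2 in CD70TG*Ifng-/- against Ifng-/-, 1 in CD70TG*Ifng-/- against CD70TG and 2 in the interaction. Over all genes 2179 changed in CD70TG against WT, 5337 with array weights, 3686 without both arrays, and 853, 1366, 898 and 975 without WT 1, WT 3, CD70TG 1 and CD70TG 2. The cause was not tested. Of the values of single genes, 2521 kept their side of the threshold, 160 gained it and 145 lost it, and none reversed a called direction. The number of mice limits the precision, and signal over background is not given.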
